A study of Rattus norvegicus with 35 samples.

Results

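The Cyp2c genes encode cytochromes P450, haem enzymes of the hepatocyte endoplasmic reticulum that hydroxylate steroids, retinoids, fatty acids and drugs. They were taken here as all probe sets whose annotated symbol starts with Cyp2c. There were 7, each annotated to that symbol alone, among 14217 genes with a probe set of 1 symbol on the array. They are Cyp2c11, Cyp2c13, Cyp2c6v1, Cyp2c7, Cyp2c12, Cyp2c22 and Cyp2c23, with 1 probe set per gene. The RefSeq annotation of the rat assembly GRCr8 lists 17 Cyp2c entries, of which 11 are protein coding and 6 are pseudogenes, and the 7 measured genes all lie on chromosome 1 in the order Cyp2c11, Cyp2c6v1, Cyp2c7, Cyp2c12, Cyp2c13, Cyp2c22 and Cyp2c23. Because the paralogues are alike in sequence, a probe set may also read RNA of another family member, which was not tested.

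Livers came from 35 male rats (Harlan Sprague Dawley) aged 7 weeks when dosing began. They received the brominated flame retardant BTBPE, 1,2-bis(2,4,6-tribromophenoxy)ethane, in corn oil, or corn oil alone, by gavage once a day for 5 days. The groups were vehicle (0 mg/kg) and 0.07, 0.69, 6.88, 68 and 680 mg/kg, with 6 rats each except 5 at 68 mg/kg, and the left lobe was sampled the day after the last dose. Each rat gave 1 Affymetrix 3' expression array, and levels are log2 RMA values, on which 1 unit is a doubling.

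In rats the secretion pattern of growth hormone sets the sex-dependent expression of several Cyp2c genes. Pulses, as in males, activate the transcription factor STAT5B in bursts and go with high Cyp2c11 and Cyp2c13, whereas the more continuous pattern of females goes with high Cyp2c12 and Cyp2c7. Bcl6 encodes a transcriptional repressor that is higher in male liver and falls under continuous growth hormone, and Socs2 encodes a feedback inhibitor of the growth hormone receptor whose transcription rises after STAT5 activation. Both therefore serve as readouts of growth hormone action in liver.

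RefSeq promoter windows were matched for 6 of the 7 genes, Cyp2c6v1 being the other, and for Bcl6. The 250 bases before the start of 4 sex-dependent members are shown because matches to known elements are shared unequally among them. Capitals mark, on either strand, the letters of an HNF4 element (CAAAGNNCA), the core of an HNF6 site (ATTGAT, or ATCAAT on the other strand) and a TATA box (TATAAAA). Coordinates are on GRCr8, and each sequence reads 5' to 3' towards the gene.
Cyp2c11 (chr1:246174966-246175215, plus strand): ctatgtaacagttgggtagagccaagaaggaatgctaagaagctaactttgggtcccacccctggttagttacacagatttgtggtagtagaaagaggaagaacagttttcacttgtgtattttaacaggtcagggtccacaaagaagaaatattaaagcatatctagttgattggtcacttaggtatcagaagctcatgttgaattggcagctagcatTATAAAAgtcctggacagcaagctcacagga
Cyp2c13 (chr1:248787189-248787438, minus strand): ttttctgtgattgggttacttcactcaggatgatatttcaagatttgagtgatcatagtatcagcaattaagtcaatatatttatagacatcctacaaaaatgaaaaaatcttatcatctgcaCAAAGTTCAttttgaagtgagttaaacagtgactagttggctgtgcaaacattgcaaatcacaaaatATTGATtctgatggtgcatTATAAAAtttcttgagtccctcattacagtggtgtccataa
Cyp2c7 (chr1:247966144-247966393, plus strand): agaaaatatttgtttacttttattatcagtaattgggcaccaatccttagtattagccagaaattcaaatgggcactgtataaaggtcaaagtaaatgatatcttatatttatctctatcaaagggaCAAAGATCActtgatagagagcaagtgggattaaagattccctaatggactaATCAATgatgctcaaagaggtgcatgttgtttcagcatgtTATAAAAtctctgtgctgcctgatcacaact
Cyp2c12 (chr1:248677035-248677284, minus strand): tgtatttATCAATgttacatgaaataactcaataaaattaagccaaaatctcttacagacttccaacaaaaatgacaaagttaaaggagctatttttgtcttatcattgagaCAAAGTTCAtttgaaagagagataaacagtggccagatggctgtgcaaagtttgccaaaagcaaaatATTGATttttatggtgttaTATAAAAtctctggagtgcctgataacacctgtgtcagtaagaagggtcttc
HNF4 and HNF6 (encoded by Onecut1) are hepatocyte transcription factors. The HNF4 letters were found in the windows of Cyp2c7, Cyp2c12 and Cyp2c13, and in 5.22% of 33469 promoter windows of the same length. The HNF6 letters were found in the same 3 genes and in 7.10% of all windows. The TATA box letters were found in these 3 and in Cyp2c11, and in 5.38% of all windows. The letters of a STAT binding site (TTCNNNGAA), found in 7.67% of all windows, were in none of the 6 Cyp2c windows or that of Bcl6, which says nothing about sites elsewhere. Cyp2c12 and Cyp2c13 shared 71.2% of their 250 bases, the highest of the 15 pairs of windows, while the 5 pairs with Cyp2c23 shared 53.2% to 59.6%. A match of letters is a description of the sequence, not a measured binding site. Over the 35 rats the levels of this most alike pair had r = -0.185.

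The tissue read as liver. The 10 measured hepatocyte markers had mean levels of 9.36 to 14.39, while of 10 measured kidney markers 1, Miox at 8.95, reached the median of all values, 4.74. Array medians ran from 4.71 to 4.79. The list mean of 11 macrophage markers ranged over rats from 7.97 to 8.57 in vehicle rats, 7.88 to 8.50 at 0.07, 7.63 to 8.73 at 0.69, 7.89 to 8.72 at 6.88, 7.60 to 8.48 at 68 and 8.03 to 8.47 at 680 mg/kg. Of these markers 11 had a lower mean than in vehicle rats at 0.07, 0.69, 68 and 680 mg/kg and 10 at 6.88 mg/kg, with 0 called. Over all probe sets 48.3% (680 mg/kg) to 49.5% (0.07 mg/kg) had a higher mean at the dose. The median log2 difference of the markers was lowest at 68 mg/kg, -0.31, against -0.0023 over all probe sets. All doses were compared with the same vehicle rats, and these counts were not tested. In a bulk sample fewer cells of a type and less RNA per cell cannot be told apart.

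The first question was whether BTBPE altered the Cyp2c transcripts. At none of the 5 doses did a Cyp2c gene pass limma's moderated test at an adjusted p of 0.05, and the same held for the trend over dose rank and for the F test over all doses. Called probe sets were 0% of the 31042 tested in each of these 7 comparisons. At an unadjusted p under 0.05, 1 of the 7 members was called at 680 mg/kg, against 4.95% of all probe sets, and 0 of 7 at 68, 6.88, 0.69 and 0.07 mg/kg, against 3.88%, 4.63%, 3.16% and 3.64% of all probe sets. For the trend and the F test it was 0 of 7, against 4.99% and 3.85%. The doses share the vehicle rats, so their comparisons are not independent.

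**Figure D1:**
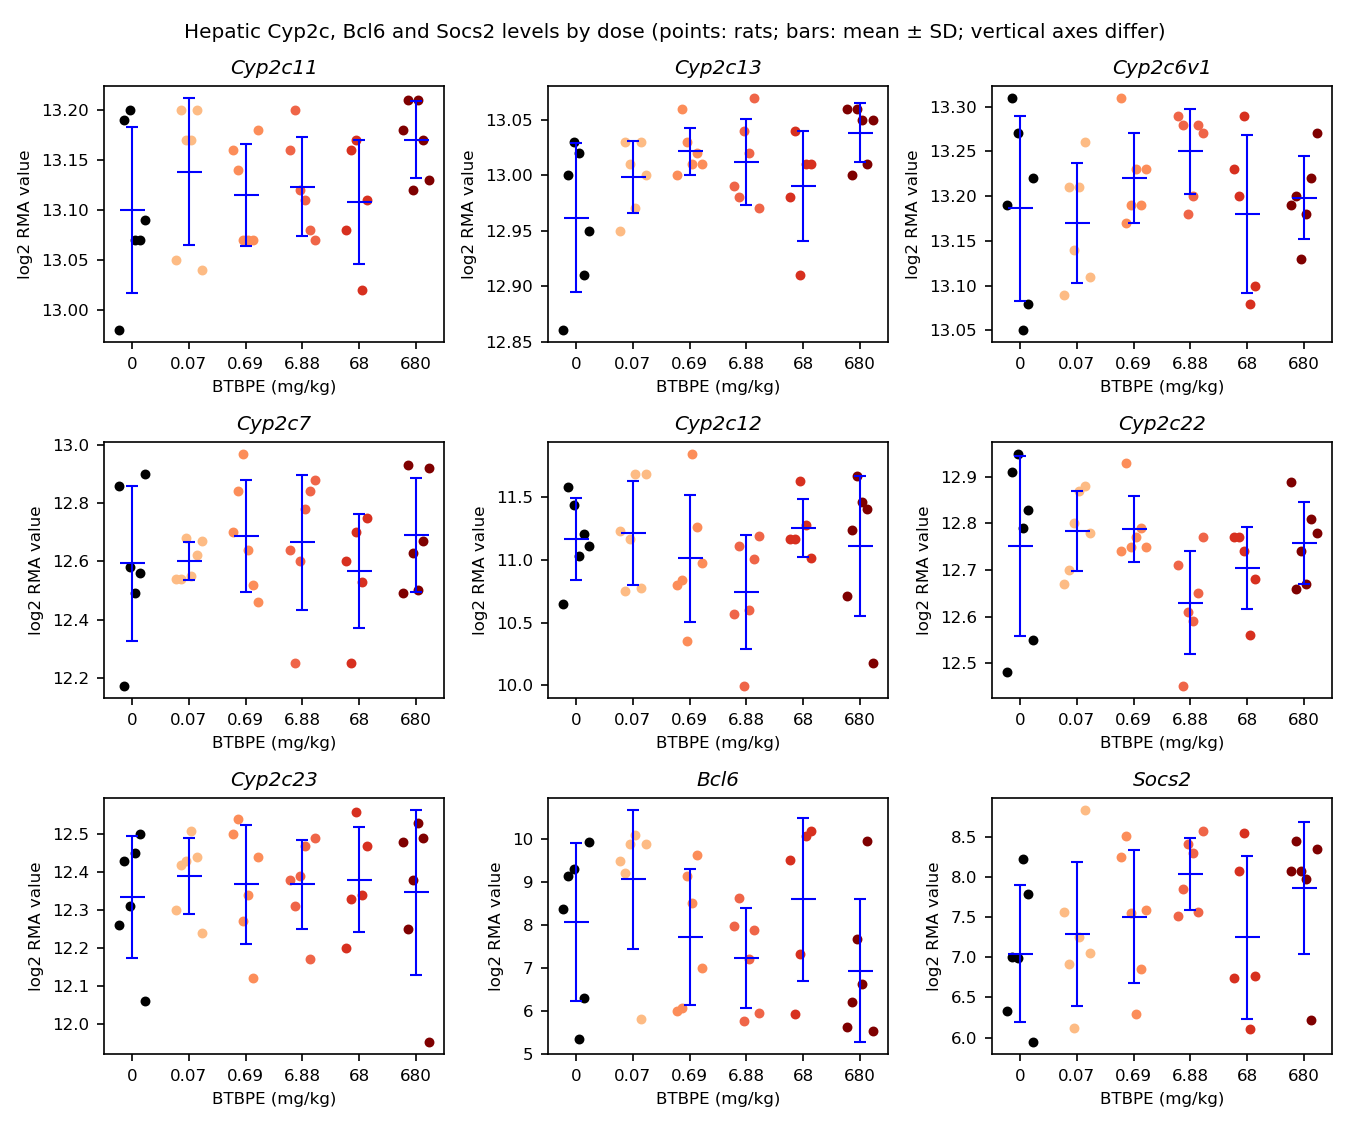
Log2 RMA level (vertical axes, which differ between panels) of each Cyp2c gene, Bcl6 and Socs2 in every rat, by BTBPE dose in mg/kg (0 is vehicle); points are rats and blue bars the mean ± SD of each group (n = 6, or 5 at 68 mg/kg). In every panel the dose groups overlap the vehicle group, and Bcl6 spans 5.35 to 10.2.

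Of the male-predominant members, Cyp2c11, a testosterone hydroxylase and a main P450 of adult male rat liver, varied little in any group. Its lowest, median and highest levels were 12.98, 13.08 and 13.2 in vehicle rats, 13.04, 13.17 and 13.2 at 0.07 mg/kg, 13.07, 13.11 and 13.18 at 0.69 mg/kg, and 13.07, 13.12 and 13.2 at 6.88 mg/kg. At 68 mg/kg the 5 rats read 13.08, 13.16, 13.17, 13.02 and 13.11. At 680 mg/kg the lowest, median and highest were 13.12, 13.18 and 13.21. The groups overlapped throughout, and the single lowest value was in a vehicle rat. The 680 mg/kg level averaged 13.17 ± 0.04 and the vehicle level 13.10 ± 0.08 (SD, n = 6 each), a log2 difference of 0.07 with a 95% interval of 0.986- to 1.12-fold (limma, unadjusted p = 0.127, adjusted p = 0.994).

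Cyp2c13, another male-specific steroid hydroxylase, was the member with an unadjusted p under 0.05. Its levels at 680 mg/kg had a lowest value of 13.0, a median of 13.05 and a highest of 13.06, against 12.86, 12.97 and 13.03 in vehicle rats. All 6 rats at 680 mg/kg lay above the vehicle mean, yet the ranges overlapped. The difference was 1.05-fold (95% interval 1.00 to 1.11, limma, unadjusted p = 0.0493, adjusted p = 0.994). In the dose series the mean was 12.96 ± 0.07 in vehicle rats, 13.00 ± 0.03 at 0.07, 13.02 ± 0.02 at 0.69, 13.01 ± 0.04 at 6.88, 12.99 ± 0.05 at 68 and 13.04 ± 0.02 at 680 mg/kg (SD, n = 6, or 5 at 68 mg/kg). Neighbouring means in that series differed by less than the SD of the vehicle group.

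Cyp2c22, a retinoic acid hydroxylase that is higher in male rat liver, averaged 12.75 ± 0.19 in vehicle rats, 12.78 ± 0.09 at 0.07, 12.79 ± 0.07 at 0.69, 12.63 ± 0.11 at 6.88, 12.70 ± 0.09 at 68 and 12.76 ± 0.09 at 680 mg/kg. The lowest mean was thus at 6.88 mg/kg, where 1 of 6 rats exceeded the vehicle mean. That difference was 0.918-fold (95% interval 0.834 to 1.01, limma, unadjusted p = 0.0799, adjusted p = 0.999).

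Among the female-predominant members, Cyp2c12, a hydroxylase of steroid sulphates that marks female rat liver, spread most. In these male livers its mean level was 11.08, and 98.25% of probe sets had a mean no higher. Whether the Cyp2c12 probe set also read RNA of another member was not tested. Its lowest, median and highest levels were 10.65, 11.16 and 11.58 in vehicle rats, 10.75, 11.2 and 11.69 at 0.07 mg/kg, 10.35, 10.91 and 11.85 at 0.69 mg/kg, and 9.99, 10.8 and 11.19 at 6.88 mg/kg. At 68 mg/kg the rats read 11.17, 11.17, 11.63, 11.28 and 11.02, and at 680 mg/kg the lowest, median and highest were 10.18, 11.33 and 11.67. The rats with the highest and the lowest level both belonged to dosed groups, and all groups overlapped. The largest difference of any member at any dose was that of Cyp2c12 at 6.88 mg/kg, 0.743-fold the vehicle level, with a 95% interval of 0.536 to 1.03 (limma, unadjusted p = 0.0740, adjusted p = 0.999), and 1 of 6 rats there lay above the vehicle mean. Its log2 value of -0.43 became -0.28 without replicate 3 of that dose. At 680 mg/kg the interval ran from 0.691- to 1.33-fold, so these arrays do not exclude a change within that range in either direction.

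Cyp2c7, a retinoic acid hydroxylase that is higher in female rat liver, had its lowest, median and highest levels at 12.17, 12.57 and 12.9 in vehicle rats, 12.54, 12.59 and 12.68 at 0.07 mg/kg, 12.46, 12.67 and 12.97 at 0.69 mg/kg, and 12.25, 12.71 and 12.88 at 6.88 mg/kg. The 5 rats at 68 mg/kg read 12.6, 12.25, 12.7, 12.53 and 12.75, and those at 680 mg/kg had a lowest, median and highest of 12.49, 12.65 and 12.93. All groups overlapped, the vehicle, 6.88 and 68 mg/kg groups each held a rat at 12.25 or below, and the range was narrowest at 0.07 mg/kg. Against vehicle the 680 mg/kg group was 1.07-fold (95% interval 0.914 to 1.25, limma, unadjusted p = 0.398, adjusted p = 0.994). The log2 difference of 0.09 became 0.0097 without vehicle replicate 2.

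Of the members expressed in both sexes, Cyp2c6v1, a constitutive drug-metabolising P450, averaged 13.20 ± 0.05 at 680 mg/kg and 13.18 ± 0.10 in vehicle rats (SD, n = 6 each), 1.01-fold (interval 0.944 to 1.08). Cyp2c23, an arachidonic acid epoxygenase that is also the main epoxygenase of rat kidney, averaged 12.33 ± 0.16 in vehicle rats, 12.39 ± 0.10 at 0.07, 12.37 ± 0.16 at 0.69, 12.37 ± 0.12 at 6.88, 12.38 ± 0.14 at 68 and 12.34 ± 0.22 at 680 mg/kg. Its widest difference from vehicle was 1.04-fold at 0.07 mg/kg (interval 0.919 to 1.18). The single lowest Cyp2c23 value, 11.95, was in a 680 mg/kg rat and the next lowest, 12.06, in a vehicle rat.

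**Figure D2:**
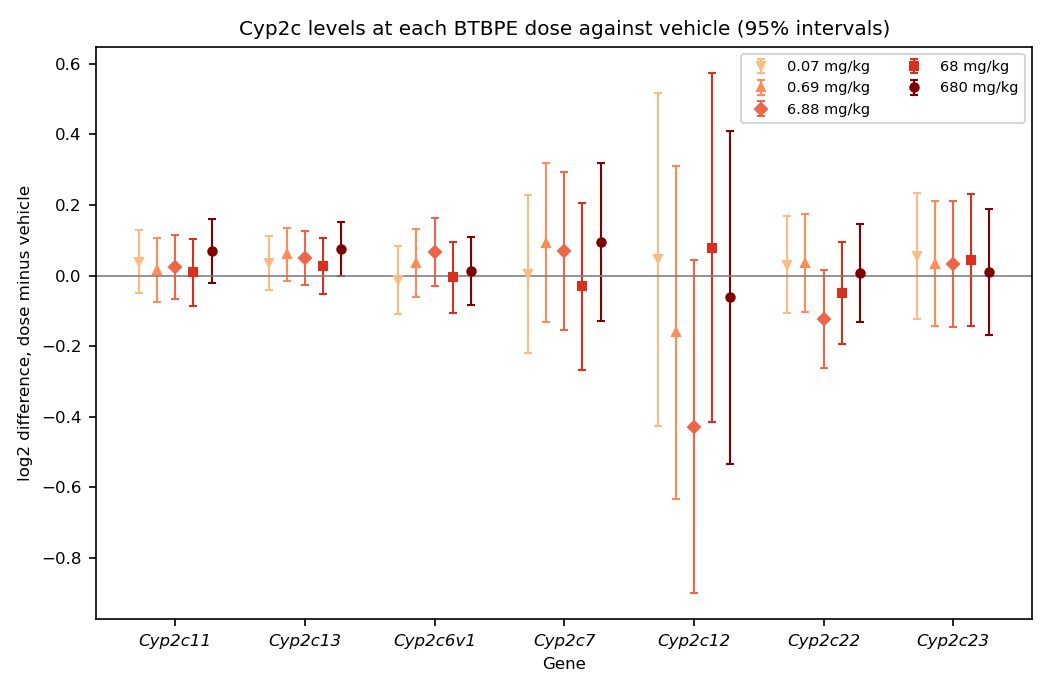
Log2 difference from vehicle (vertical axis) of the 7 Cyp2c genes (horizontal axis) at each dose, marked by shape and shade, with 95% intervals of the limma fit; the horizontal line is no difference. Of the 35 intervals that of Cyp2c13 at 680 mg/kg lies just above 0, and the widest are those of Cyp2c12.

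At 680 mg/kg 6 of 7 members had a higher mean than vehicle rats, against 48.3% of all probe sets, at 68 mg/kg 4 (48.9%), at 6.88 mg/kg 5 (48.7%), at 0.69 mg/kg 6 (48.7%) and at 0.07 mg/kg 6 (49.5%). The median log2 difference of the members was 0.013, 0.0095, 0.033, 0.036 and 0.036 in that order of doses, against -0.0035, -0.0023, -0.0025, -0.0022 and -0.0010 over all probe sets. No test was made of these counts and medians, all of which refer back to the same 6 vehicle rats.

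The spread between rats, in contrast, differed widely among the members. Over all 35 rats the SD was 0.0458 for Cyp2c13, 0.0616 for Cyp2c11, 0.0696 for Cyp2c6v1, 0.120 for Cyp2c22, 0.144 for Cyp2c23, 0.192 for Cyp2c7 and 0.437 for Cyp2c12. The male-specific Cyp2c11 and Cyp2c13 had small SDs: of 15524 probe sets with a mean at or above the median value, 97.6% and 99.5% had an SD at least as large, and so did 77.5% and 93.0% of the 1121 probe sets with a mean of at least 10. Their means of 13.13 and 13.00 lay near the highest of any probe set, 14.39, and other bright liver genes had SDs as small, 0.0436 for Cyp2d2, a P450, and 0.030 for Ttr, transthyretin. The part of signal level in these SDs was not tested. For Cyp2c12 1.51% of the 15524 probe sets had an SD as large, and its highest rat was 3.63-fold its lowest. For Cyp2c7, at 1.74-fold between the extremes, the share was 16.4%. Taking off the group means left these values nearly as they were, with within-group SDs of 0.434 for Cyp2c12 and 0.200 for Cyp2c7.

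The next question was whether this variation went with the growth hormone readouts, which themselves varied far more. Bcl6 had a lowest, median and highest level of 5.35, 8.75 and 9.95 in vehicle rats, 5.81, 9.69 and 10.1 at 0.07 mg/kg, 6.01, 7.76 and 9.64 at 0.69 mg/kg, and 5.76, 7.55 and 8.64 at 6.88 mg/kg. The rats at 68 mg/kg read 9.51, 5.92, 7.32, 10.09 and 10.2, and at 680 mg/kg the lowest, median and highest were 5.54, 6.42 and 9.97. The lowest rat of a group thus lay between 5.35 and 6.01 and the highest between 8.64 and 10.2, so that every group held low and high Bcl6 rats, and the extremes were 28.9-fold apart. Socs2 ran from 5.94 to 8.84 over the 35 rats, 7.45-fold.

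Neither readout was called for dose. At 6.88 mg/kg Socs2 averaged 8.04 ± 0.45, against 7.05 ± 0.86 in vehicle rats (SD, n = 6 each), 1.99-fold (95% interval 1.07 to 3.68, limma, unadjusted p = 0.0305, adjusted p = 0.999), with 6 of 6 rats above the vehicle mean and overlapping ranges. At 680 mg/kg Bcl6 was 0.458-fold (interval 0.135 to 1.56) and Socs2 1.75-fold (interval 0.946 to 3.25) the vehicle level.

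Bcl6 and Socs2 mirrored each other. Over the 35 rats r was -0.838 and Spearman's rho -0.830 (2-sided permutation test, p = 1e-05, the smallest that 100000 resamples give, adjusted p = 0.00036 over the family of 36 pairs of the 9 genes). With group means taken off r was -0.854, and without the 2 rats farthest from the median it was -0.823. This was the 1 pair of the 36 that passed, and 6 pairs had an unadjusted p under 0.05. Both readouts also varied with the list mean of 12 pericentral hepatocyte markers, Bcl6 with r = 0.597 and rho = 0.554 and Socs2 with r = -0.593 and rho = -0.559 (permutation tests, adjusted p = 0.0063 each over 63 pairs of the 9 genes with 6 marker lists and an RNA quality measure). After group means were taken off, Bcl6 had r = 0.626 (permutation within groups, adjusted p = 0.0224) with this list, but its rho of 0.482 did not pass (adjusted p = 0.106). Socs2 then had r = -0.616 (adjusted p = 0.0224) and rho = -0.578 (adjusted p = 0.0435). Of these pericentral markers Cyp7a1 had the largest SD over the rats, 0.738, and the next was Slc1a2 at 0.285. The part of Cyp7a1 in these r was not tested. By Pearson's r no Cyp2c gene passed in the family of 63 pairs. By Spearman's rho none passed over all rats. With group means taken off Cyp2c7 passed with the list mean of the hepatocyte markers (rho = -0.552) and Cyp2c12 with the RNA quality measure (rho = 0.556), at an adjusted p of 0.0435 each (permutation within groups). In the hepatocyte list Tat had the largest SD, 0.38, and Apoa1 the next, 0.0875.

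No Cyp2c gene passed with either readout. Cyp2c11, Cyp2c13 and Cyp2c6v1 had small SDs (0.0616, 0.0458 and 0.0696) at high signal, and the part of this in their r was not tested. Cyp2c11 had r = -0.224 with Bcl6 (rho = -0.206, permutation p = 0.194, adjusted p = 0.388) and r = 0.329 with Socs2 (rho = 0.293, p = 0.0537, adjusted p = 0.222). An r with Socs2 at least that far from 0 was found for 14.39% of 15523 other probe sets at or above the median value. For Cyp2c7 r was -0.0506 with Bcl6 (rho = 0.0143, adjusted p = 0.877) and 0.0403 with Socs2 (rho = 0.102, adjusted p = 0.877), and both signs turned when group means were taken off (0.0497 and -0.0500). For Cyp2c23 it was -0.221 with Bcl6 (rho = -0.230, adjusted p = 0.388) and 0.279 with Socs2 (rho = 0.352, adjusted p = 0.291). Leaving out 1 rat at 680 mg/kg, replicate 6, gave -0.412 (adjusted p = 0.110) and 0.432 (adjusted p = 0.101). Within single groups of 6 rats these 6 pairs took both signs, as given under the processing alternatives.

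Cyp2c12 came nearest, with r = 0.405 and rho = 0.430 with Bcl6 (permutation p = 0.0158, adjusted p = 0.190) and r = -0.316 and rho = -0.269 with Socs2 (p = 0.0637, adjusted p = 0.222). Without the 2 rats farthest from the Bcl6 median r was 0.356, and with group means taken off it was 0.352. Of the other probe sets 9.52% had an r with Bcl6 at least that far from 0. A measure of RNA quality was compared with both genes. The difference between the 3' and 5' control probe sets of Actb, which grows as RNA is less intact, had a group-centred r of 0.555 with Cyp2c12 (adjusted p = 0.0561 over 63 pairs, permutation within groups) and rho of 0.556 (adjusted p = 0.0435). With Bcl6 its group-centred r was 0.461 (adjusted p = 0.114) and rho 0.491 (adjusted p = 0.0789). Over all rats that difference had r = 0.305 with Cyp2c12 and r = 0.308 with Bcl6 (permutation tests over 63 pairs, adjusted p = 0.329 each). With that difference and the group means taken off, r between Cyp2c12 and Bcl6 was 0.131 (adjusted p = 0.744). The part of RNA quality in the relation was not tested.

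**Figure D3:**
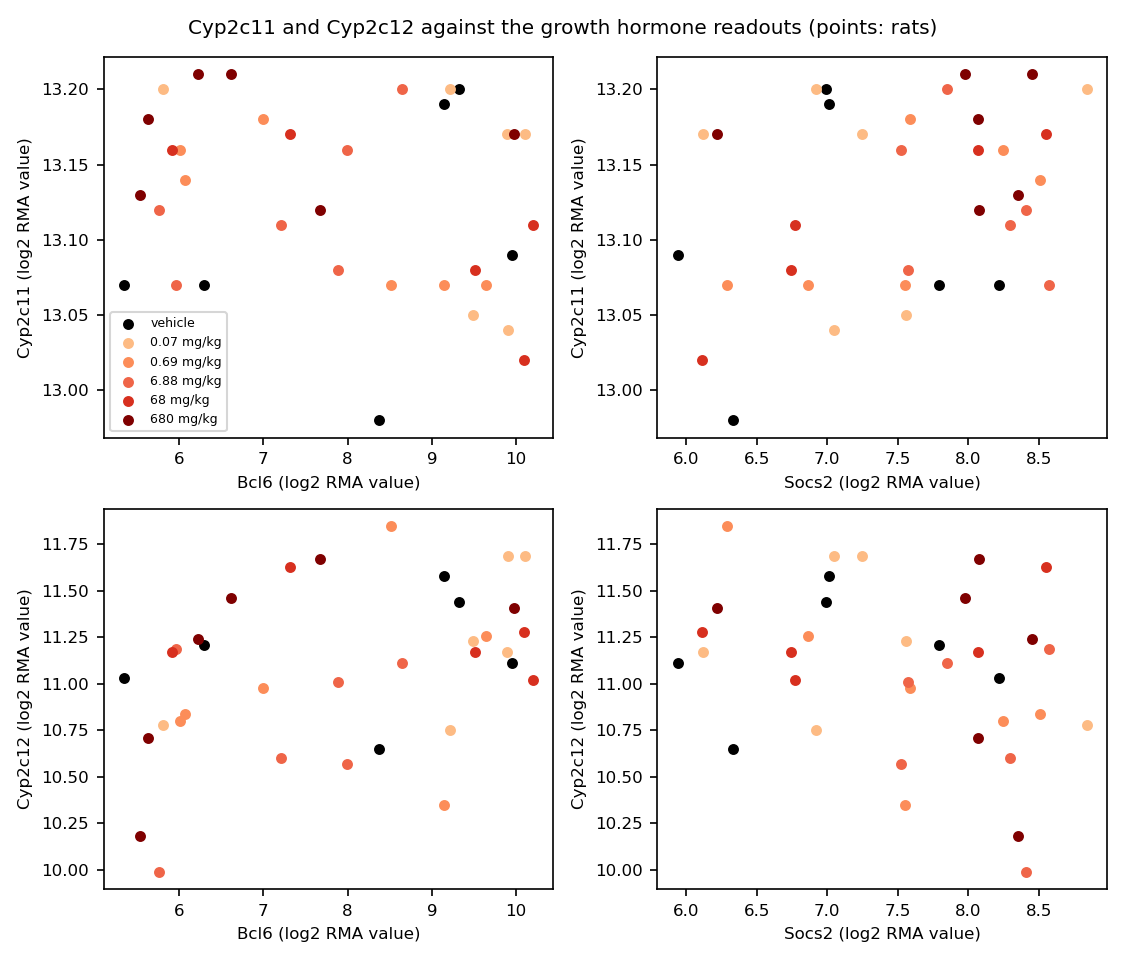
Level of Cyp2c11 (upper panels) and Cyp2c12 (lower panels) against that of Bcl6 (left) and Socs2 (right), all as log2 RMA values, in each of 35 rats coloured by dose. Cyp2c12 shows r = 0.405 with Bcl6 and Cyp2c11 r = 0.329 with Socs2, and rats of every dose are scattered over the range of the readouts.

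Nor did the Cyp2c genes rise and fall together. Of the 21 pairs of members 12 had a positive r, with a median of 0.0346, and 0 passed after adjustment. The highest was Cyp2c11 with Cyp2c6v1, r = 0.471 and rho = 0.444 (permutation p = 0.00453, adjusted p = 0.0815), at 0.561 with group means taken off (adjusted p = 0.0734) and 0.423 without the 2 farthest rats. This pair passed when the Actb difference and group means were taken off (r = 0.575, adjusted p = 0.0248). Under that same correction Cyp2c12 and Cyp2c23 also passed, with r = 0.520 and rho = 0.580 (adjusted p = 0.0474), where the uncorrected r was 0.186 (adjusted p = 0.493).

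The most negative pair was Cyp2c11 with Cyp2c7, the first male- and the second female-predominant, at r = -0.344 and rho = -0.277 (permutation p = 0.0429, adjusted p = 0.222). Next was Cyp2c7 with Cyp2c12, both female-predominant, at r = -0.3215 and rho = -0.261 (permutation test, adjusted p = 0.222). Cyp2c11 with Cyp2c23 had r = 0.360 (rho = 0.340, adjusted p = 0.222) and Cyp2c11 with Cyp2c13 r = 0.356 (rho = 0.240, adjusted p = 0.222). The last rested on few rats, since r was 0.106 without the 2 farthest. Cyp2c7 with Cyp2c23 had r = -0.272 (rho = -0.173, adjusted p = 0.291).

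**Figure D4:**
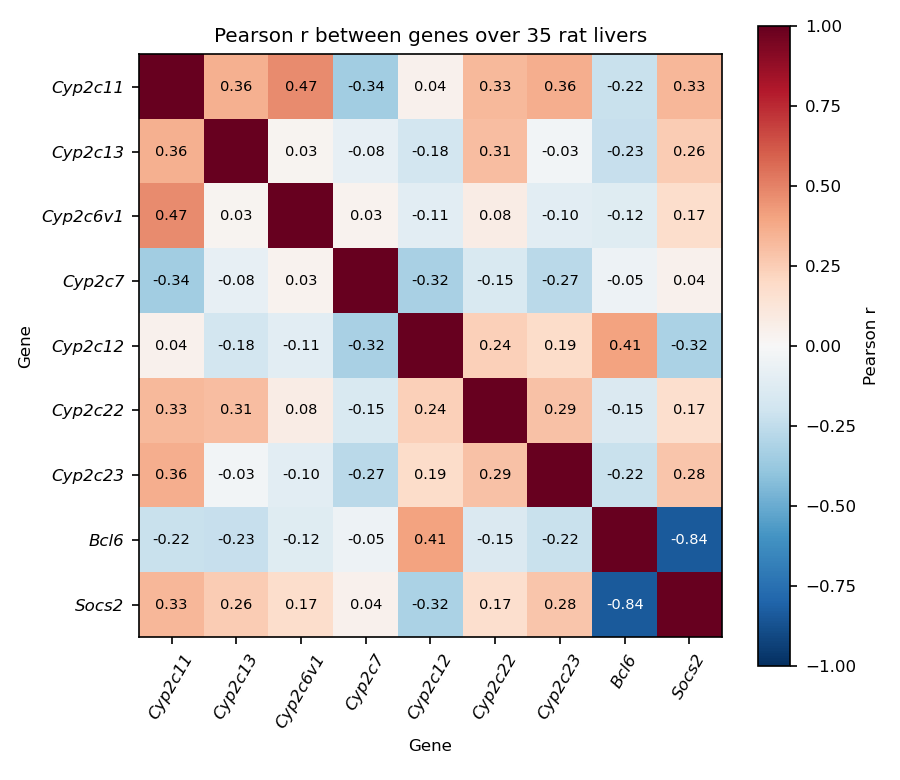
Pearson r over 35 rats between the levels of the 7 Cyp2c genes, Bcl6 and Socs2 (both axes), with red for positive and blue for negative values and each r printed in its cell. The cell of Bcl6 with Socs2, -0.838, stands apart from the Cyp2c cells, the highest of which is 0.471.

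A wider set of growth hormone axis genes was then examined: 14 further genes of that list against the 7 members, 98 pairs in all. This family was added after the genes most like each member had been seen, and Prlr and Stat5a were among those, so their pairs are not independent support. The adjusted p was below 0.05 for 3 of 98 pairs, and 9 had an unadjusted p under 0.05. Cyp2c7 with Prlr, the prolactin receptor, which is higher in female rat liver, had r = 0.787 and rho = 0.796 (permutation test, adjusted p = 0.00098, the smallest this family allows). The relation was positive in each of the 5 groups of 6 rats, with r = 0.687 in vehicle rats, 0.713 at 0.07, 0.889 at 0.69, 0.933 at 6.88 and 0.939 at 680 mg/kg. Without the 2 farthest rats it was 0.749, and with the Actb difference and group means taken off 0.788. The list mean of the hepatocyte markers moved against Cyp2c7, with r = -0.340 and rho = -0.442 (permutation tests over 63 pairs, adjusted p = 0.305 and 0.174). With group means taken off these were r = -0.471 (adjusted p = 0.177) and rho = -0.552 (adjusted p = 0.0435). Of these markers Tat had the largest SD over the rats, 0.38, and the next was Apoa1 at 0.0875. The part of Tat in these values, and of the markers in the relation of Cyp2c7 with Prlr, was not tested.

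Prlr itself ran from 5.41 to 8.15 over all rats and averaged 6.65 ± 0.67 in vehicle rats, 6.43 ± 0.61 at 0.07, 6.82 ± 0.81 at 0.69, 6.76 ± 0.97 at 6.88, 6.63 ± 0.67 at 68 and 6.75 ± 0.73 at 680 mg/kg (SD, n = 6, or 5 at 68 mg/kg), so that its spread within groups exceeded every difference between group means. Prlr did not pass with Bcl6 (r = -0.0993, rho = -0.0487, adjusted p = 0.727) or Socs2 (r = 0.126, rho = 0.172, adjusted p = 0.704; permutation tests over 21 pairs of Cyp2c7, 4 genes that vary with it and both readouts).

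Cyp2c7 also varied with Igfals, the acid labile subunit of circulating IGF1 complexes, which is induced by growth hormone. For this pair r was 0.612 and rho 0.629 (permutation test, adjusted p = 0.00637), and r was 0.469 without the 2 farthest rats. Within groups it was 0.764 in vehicle rats, 0.300 at 0.07, 0.658 at 0.69, 0.155 at 6.88 and 0.798 at 680 mg/kg. Igfbp3, the main carrier of IGF1, and Igf1 itself had r of 0.451 (rho = 0.467, adjusted p = 0.164) and 0.396 (rho = 0.431, adjusted p = 0.286) with Cyp2c7 and did not pass. Cyp2c11 had r = -0.416 with Prlr (rho = -0.371, adjusted p = 0.262). The female-predominant Cyp2c12 also had a negative r with Prlr, -0.283 (rho = -0.287, permutation test, adjusted p = 0.506).

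The third pair was Cyp2c13 with Stat5a, a growth hormone signal transducer, at r = 0.568 (adjusted p = 0.0127) and rho = 0.495 (adjusted p = 0.0830). With group means taken off r was 0.642 (adjusted p = 0.00539) and rho 0.587 (adjusted p = 0.0261), and with the Actb difference taken off as well r was 0.644. Within groups r was 0.826 in vehicle rats, 0.769 at 0.07, 0.370 at 0.69, 0.802 at 6.88 and 0.261 at 680 mg/kg. Over all rats the call was lost without vehicle replicate 1, which had the lowest Cyp2c13 level of all, where r was 0.405 and the adjusted p 0.350.

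By likeness over all measured genes, with group means taken off and each of 9591 genes represented once, Cyp2c7 was closest to AKR1C3l1, an aldo-keto reductase (r = 0.812), to Prlr (0.792), to Gstp3, a glutathione S-transferase (0.772), to Plbd1 (0.713) and to Alkbh7 (0.658). Its lowest r were with Gstt3, another glutathione S-transferase (-0.666), Ppp1r13b (-0.666), Akr7a3, an aldehyde reductase (-0.637), Gpat4, a glycerolipid acyltransferase (-0.635), and Dhrs7l1 (-0.630). These are descriptions over 35 rats that share arrays and normalisation. AKR1C3l1 ran from 8.08 to 9.21 and Gstp3 from 10.87 to 12.16 over the rats. Their r with Bcl6 was 0.0961 and -0.129, against -0.0506 for Cyp2c7, and none of the 3 passed.

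**Figure D5:**
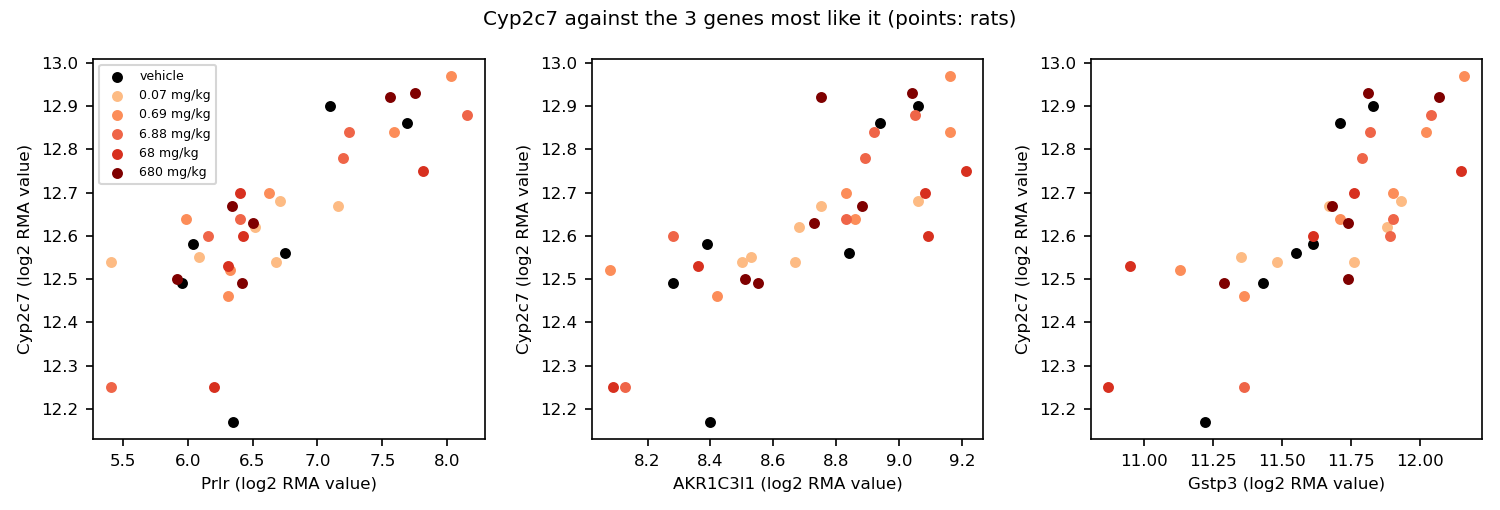
Level of Cyp2c7 (vertical axes) against Prlr, AKR1C3l1 and Gstp3 (horizontal axes, left to right), all as log2 RMA values, in each of 35 rats coloured by dose. With r of 0.787, 0.786 and 0.774 the points rise together in each panel, and rats of the different doses are intermingled along the line.

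The nearest genes of the other members were different ones. Cyp2c11 had its highest r with Cndp2, a dipeptidase (0.747), Dcxr, a xylulose reductase (0.702), Tmem176b (0.698), Nxpe4 (0.681) and Inmt, an N-methyltransferase (0.675). It had its lowest with Slc34a2, a phosphate transporter (-0.762), Stambpl1 (-0.761), Bzw2 (-0.698), Gas5, a non-coding RNA (-0.695), and Psat1, an enzyme of serine synthesis (-0.694). Cyp2c23 was nearest to Serinc5 (0.728), Ctsa, a lysosomal carboxypeptidase (0.712), Ackr4, a chemokine scavenger receptor (0.697), Ermp1 (0.687) and Tmem176b (0.666). Its lowest r were with Bloc1s2 (-0.735), Uqcrq, a subunit of respiratory complex III (-0.723), the ATP synthase components Atp5mpl (-0.672) and Atp5pf (-0.668), and Atf5 (-0.642). Bloc1s2 is a close neighbour of Cyp2c23 on chromosome 1, with 5 RefSeq genes between them in GRCr8, 3 of them protein coding. The mean levels of Uqcrq, Atp5mpl and Atp5pf were 11.94, 10.33 and 10.78.

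The genes around the family, by the lists used, gave 0 calls at any dose. The counts at 680 mg/kg below stand beside 48.3% of all probe sets with a higher mean, 4.95% at an unadjusted p under 0.05 and a median log2 difference of -0.0035 over all probe sets, and no list was tested. Of 16 growth hormone axis genes 13 had a higher mean at 680 mg/kg than in vehicle rats and 3 a lower one, with 2 at an unadjusted p under 0.05. Those were Onecut1, which encodes HNF6, an activator of Cyp2c12 in female rat liver, and Igfbp1, an IGF binding protein. Onecut1 had a lowest, median and highest level of 5.92, 8.37 and 10.17 at 680 mg/kg, against 6.13, 6.52 and 8.46 in vehicle rats, 2.51-fold (95% interval 1.11 to 5.68, limma, unadjusted p = 0.0289, adjusted p = 0.994). Its means over the dose series were 6.95, 7.22, 7.54, 7.93, 7.54 and 8.28 from vehicle up to 680 mg/kg (trend over dose rank, unadjusted p = 0.0283, adjusted p = 0.980). Cyp2c12 had r = -0.279 with Onecut1 over the rats (rho = -0.286, permutation p = 0.105, adjusted p = 0.506). Igfbp1 averaged 9.22 ± 1.21 at 680 mg/kg and 10.19 ± 0.58 in vehicle rats (SD, n = 6 each), 0.510-fold (limma, unadjusted p = 0.0327, adjusted p = 0.994).

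Among 10 measured male-predominant genes 8 were higher and 2 lower at 680 mg/kg, with a median log2 difference of 0.057, and the 2 with the smallest p were Cyp2c13 and Cyp2c11. At the other doses 8 of 10 were higher at 68, 5 at 6.88, 6 at 0.69 and 5 at 0.07 mg/kg. Among 12 female-predominant genes 9 were higher and 3 lower, with a median of 0.042. The smallest p there was that of Akr1b7, an aldose reductase-like enzyme, whose level was below the array medians in both groups (3.17 ± 0.25 at 680 mg/kg and 2.79 ± 0.22 in vehicle rats, SD, n = 6 each). Next was Sult1e1, oestrogen sulphotransferase, at 0.934-fold (interval 0.842 to 1.04). Both lists contain Cyp2c members.

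For the epoxygenase and eicosanoid partners of Cyp2c23, 9 of 15 measured genes were higher and 6 lower at 680 mg/kg, with a median log2 difference of 0.060. The smallest p belonged to Alox5, arachidonate lipoxygenase (4.05 ± 0.10 at 680 mg/kg and 3.93 ± 0.14 in vehicle rats), and Cyp2j10 (1.09-fold, interval 0.948 to 1.24). Of 14 electron donor and haem genes 8 were higher and 6 lower, the smallest p being those of Cyb5r3, cytochrome b5 reductase, at 1.09-fold (interval 0.991 to 1.21), and Por, the P450 reductase that supplies electrons to these enzymes, at 0.870-fold (interval 0.724 to 1.05). Of 19 regulators of hepatic P450 genes 10 were higher and 9 lower, with 4 at an unadjusted p under 0.05, against 4.95% of all probe sets. Foxa1, a hepatocyte transcription factor, was 1.17-fold (interval 1.03 to 1.34) and Nr3c1, the glucocorticoid receptor, 1.19-fold (interval 1.02 to 1.39) at 680 mg/kg (limma, adjusted p = 0.994 each). Of 35 other hepatic P450 genes 17 were higher and 18 lower, with 0 at an unadjusted p under 0.05. Their smallest p were those of Cyp17a1, a steroid hydroxylase, at 0.795-fold (interval 0.582 to 1.09) and Cyp7a1, the rate-limiting enzyme of bile acid synthesis, at 0.687-fold (interval 0.393 to 1.20).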

How the data were processed

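RNA from the left liver lobe of 35 rats was measured on 1 Affymetrix 3' array each; per the labels' protocols RNA had an integrity number of at least 7.0. The authors' deposited values are RMA expression on a log2 scale per probe set, made with the affy package per the submitters' processing notes; its base follows RMA's convention, and no version is stated in the sources at hand. RMA had already equalised the arrays, so a shift common to most transcripts would be reduced. Of 31099 probe sets 57 controls were left out and 31042 tested with no filter. Groups were taken from the sample titles.

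A one-way model was fitted to all arrays with limma 3.58.1 in R 4.3.3, each dose against vehicle, with Benjamini-Hochberg adjustment and calls at 0.05; R/maanova, named in the design text, was not used. Correlations were tested by 2-sided permutation with 100000 resamples (exact for groups of 6), in Python 3.11.15 with numpy 2.4.6, in families of 36, 63, 98 and 21 pairs. The scripts were tested on simulated data. Each gene is represented by its brightest probe set of 1 symbol; likeness was ranked over genes at or above the median of all values. Named genes are all Cyp2c genes, Bcl6, Socs2, the 5 genes of highest and 5 of lowest group-centred r for Cyp2c7, Cyp2c11 and Cyp2c23, and the 2 genes of smallest p at 680 mg/kg per list; others were named after their values were seen. Promoter windows are RefSeq sequence of GRCr8, and an element dropped for being common is not reported. The members and lists were chosen with earlier results of these data known. The labels do not say whether rats were littermates or cage mates, and p-values measure the spread between these samples.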

Additional observations from a re-analysis of the deposited data

Results flagged for a closer look

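Of 54 groups of 5 or 6 rats examined, 9 genes in 6 groups, 3 held a rat far from the others by Dixon's criterion, and chance gives about 1 in 20. The highest Cyp2c22 level at 0.69 mg/kg was 12.93 in replicate 2, where the other rats read 12.74 to 12.79. The lowest Bcl6 level at 0.07 mg/kg was 5.81 in replicate 5, where the others read 9.21 to 10.1. That rat also had the highest Socs2 level of all, 8.84. The lowest Socs2 level at 680 mg/kg was 6.22 in replicate 5, where the others read 7.98 to 8.46, and that rat had the highest Bcl6 level of its group, 9.97. What sets these rats apart was not tested.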

How the results depend on the processing

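The count of called probe sets was 0 in each of 169 alternatives over the 7 tests, which were median centring, a second quantile normalisation, a filter on dim signals, the replicate block, another variance prior, fits of only vehicle and 1 dose, and each array left out. The 35 Cyp2c fold values gained no call in 623 alternatives, and 52 of these, in 18 values of at most 0.0793 (log2), turned the sign. A second quantile normalisation gave -0.00113 for Cyp2c7 at 0.07 mg/kg and -0.00167 for Cyp2c11 at 0.69 mg/kg. The other turns came from leaving out 1 rat, and the log2 differences then ranged as follows. At 680 mg/kg they were -0.0454 to 0.0903 for Cyp2c23, -0.173 to 0.125 for Cyp2c12, -0.0137 to 0.0377 for Cyp2c6v1 and -0.0467 to 0.0466 for Cyp2c22. At 68 mg/kg they were -0.0119 to 0.0882 for Cyp2c23, -0.0248 to 0.161 for Cyp2c12, -0.116 to 0.0479 for Cyp2c7, -0.0321 to 0.0193 for Cyp2c6v1 and -0.0143 to 0.0311 for Cyp2c11. At 6.88 mg/kg Cyp2c23 ran from -0.0232 to 0.0730 and Cyp2c7 from -0.0145 to 0.153. At 0.69 mg/kg Cyp2c23 ran from -0.0218 to 0.0841, Cyp2c11 from -0.00921 to 0.0340 and Cyp2c22 from -0.0178 to 0.0755. At 0.07 mg/kg Cyp2c12 ran from -0.0584 to 0.139, Cyp2c7 from -0.0805 to 0.0661, Cyp2c6v1 from -0.0393 to 0.0121 and Cyp2c22 from -0.0228 to 0.0704. With the sign kept, leaving out 1 rat gave -0.532 to -0.276 for Cyp2c12 at 6.88 mg/kg, -0.327 to -0.0278 for Cyp2c12 at 0.69 mg/kg, 0.00972 to 0.156 for Cyp2c7 and 0.0458 to 0.0890 for Cyp2c11 at 680 mg/kg, and 0.000177 to 0.0899 for Cyp2c23 at 0.07 mg/kg.

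The correlation of Cyp2c7 with Bcl6 turned to 0.0497 with group means taken off, 0.127 with the Actb difference taken off as well and 0.0102 with the replicate block, and that with Socs2 to -0.0500, -0.110 and -0.00339. Leaving out single rats gave -0.134 to 0.0129 for the first and -0.0120 to 0.130 for the second, and -0.412 to -0.158 for Cyp2c23 with Bcl6 and 0.181 to 0.432 for Cyp2c23 with Socs2. Within groups of 6 rats other signs than over all rats were found as follows. At 680 mg/kg r was -0.00785 for Cyp2c11 with Socs2, 0.470 for Cyp2c23 with Bcl6 and -0.482 for Cyp2c23 with Socs2. At 6.88 mg/kg it was 0.592 for Cyp2c11 with Bcl6, -0.354 for Cyp2c11 with Socs2, -0.0427 for Cyp2c11 with Cyp2c23 and 0.170 for Cyp2c7 with Cyp2c23, and the last was 0.178 at 0.69 mg/kg. Cyp2c7 with Socs2 had -0.238 at 0.07 mg/kg and -0.575 in vehicle rats, where r was 0.387 for Cyp2c11 with Bcl6, 0.216 for Cyp2c7 with Bcl6 and 0.194 for Cyp2c12 with Socs2. The causes were not tested. The 68 mg/kg group, with 5 rats, gave no such value, and no gene of these pairs has a second probe set of 1 symbol.

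Bcl6 with Socs2 kept its call in each leave-one-out fit (r from -0.853 to -0.829). Within groups of 6 the r of this pair stayed between -0.905 and -0.780, without passing adjustment. With 6 rats the exact permutation test has too few orderings for a single pair to pass that adjustment, whatever its r. The missing calls within groups therefore say nothing about this relation. In the leave-one-out fits Cyp2c7 with Prlr ran from 0.762 to 0.834 and with Igfals from 0.548 to 0.663 and passed each time. The correlation of Cyp2c11 with Cyp2c6v1, chosen after its value was seen, passed with the Actb difference and group means taken off (r = 0.575, adjusted p = 0.0248) and without replicate 3 at 0.07 mg/kg (adjusted p = 0.0441), replicate 5 (0.0320) or 6 (0.0396) at 6.88 mg/kg or replicate 4 at 680 mg/kg (0.0491), over r from 0.420 to 0.517. The correlation of Cyp2c13 with Stat5a, also chosen after its value was seen, lost its call without vehicle replicate 1 (r = 0.405, adjusted p = 0.350). Of 29 same-numbered pairs with vehicle rats 2 had deviations correlated above 0.1, over a range of -0.170 to 0.129. Rats of different numbers were not compared in this way, so whether the replicate numbers mark a block was not tested. With the replicate block the counts of calls stayed 0. Of the pairs followed in these alternatives 1 further pair passed with it, Cyp2c11 with Cyp2c6v1 (r = 0.615, permutation test, adjusted p = 0.0185). Values of the remaining pairs with the block were not kept. Precision here is limited by how many arrays there are.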

Other observations

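The genes most like the other members, ranked after the data had been seen, were as follows with group means taken off. Cyp2c6v1 was nearest to Sult1e1, oestrogen sulphotransferase (r = 0.627), Cyp1a2, a pericentral P450 (0.583), Apoa2, an apolipoprotein (0.582), and Nr1i3, the nuclear receptor CAR (0.576). Cyp2c22 was nearest to Gstm2, a glutathione S-transferase (0.655), and had r = 0.620 with Cyp3a18, a male-predominant P450, while Cpt1a, which carries fatty acids into mitochondria, was among its lowest (-0.631). Cyp2c12 was nearest to Atg4a, a protease of autophagy (0.654), and lowest with Tmco6 (-0.655). Cyp2c13 was nearest to C2cd5 (0.690) and lowest with Taf1, a subunit of the general transcription factor TFIID (-0.726). Of each gene's 5 highest and 5 lowest, those given here were picked after their values were seen, and these are values over 35 rats with no test.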
